A study of Rattus norvegicus with 18 samples.

Results

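The genes described here are 42 enzymes and regulators of antioxidant defence and detoxification, followed in 3 rat skeletal muscles with and without experimental autoimmune myasthenia gravis (EAMG). They fall into 8 classes: superoxide dismutases and catalase, glutathione peroxidases, peroxiredoxins, the thioredoxin system, glutathione synthesis and reduction, glutathione S-transferases, the heme oxygenases and quinone reductase with the Nrf2 sensor pair, and a mixed class of monooxygenases, a sulfotransferase and a sestrin. A member was taken by its symbol, and where several probe sets carried the symbol the one with the highest mean log2 signal over the 18 arrays was kept. Of the 42 members, 41 had a probe set with 1 symbol, out of 14217 such genes on the array. Prdx1, a peroxiredoxin of the cytosol, was the exception, because its probe set carries several symbols. A signal of 400 on at least 1 array was needed for testing, which 37 members and 7799 genes in all reached. The 4 members under it were Gsr (signals of 17.2 to 158), Gss (19.1 to 202), Gstt1 (14.7 to 138) and Fmo5 (96.7 to 316), so the glutathione reductase and the glutathione synthetase were not measured here well enough to compare.

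All rats were female Lewis rats of 6 to 8 weeks. EAMG was induced by a single injection of purified Torpedo acetylcholine receptor (AChR) in complete Freund's adjuvant with extra killed mycobacterium, and control rats received the adjuvant without AChR, so the adjuvant is common to all groups. The muscles, collected at week 6, were the diaphragm (DIA), which drives breathing, the extensor digitorum longus (EDL), a fast muscle that lifts the toes, and the rectus muscles of the eye (EOM, extraocular muscles). There were 6 groups of 3 arrays, each from a pool of RNA, of 3 rats by the series description and 4 or more by the study's methods. P-values therefore measure the spread between pools. Arrays are called by muscle, treatment and the replicate number of the labels. Whether arrays of different muscles came from the same rats is not given in the sources used here, so whether the 3 muscles are independent is not known. The fit used below has no term that links muscles. Its SEs and p-values for comparisons that combine muscles therefore treat them as independent.

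Superoxide made in mitochondria or by oxidases is turned to hydrogen peroxide by superoxide dismutases, and the peroxide is removed by catalase, by glutathione peroxidases and by peroxiredoxins. Glutathione and thioredoxin supply the electrons, and are recharged by reductases that draw on NADPH. Glutathione S-transferases, sulfotransferases and monooxygenases modify lipid peroxidation products, drugs and hormones, and the transcription factor Nrf2, held back by Keap1, raises many of these genes through antioxidant response elements. Contracting muscle makes these oxidants continuously, and slow oxidative fibres are known to hold more of several of these enzymes than fast fibres.

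Promoters are given first, because several of these genes are known Nrf2 targets. RefSeq promoters of the rat build GRCr8, from 250 bases before to 50 after the start of the gene, were matched for 35 of the 42 members. The letters TGACNNNGC, the core of the antioxidant response element, were sought on both strands. They stood in 8 of the 35 promoters (22.9%), against 12.2% of all 27457 promoters of that length, and the 8 were Gclm, Gstp1, Hmox2, Nfe2l2, Prdx1, Prdx4, Prdx5 and Sod2. The E-box letters CACGTG stood in 3 members (8.57%, against 6.65% of all promoters), and the FoxO site GTAAACA in 1 (2.86%, against 3.76%). The glucocorticoid response element, a palindrome, stood in 0 members, against 0.422% of all promoters. Gclm and Gstp1 are shown because the former passed in no EAMG comparison below and the latter passed in the mean of the muscles. The 250 bases before each start are printed 5′ to 3′ on the strand of the gene, Gclm from chr2:213031885-213032134 on the plus strand and Gstp1 from chr1:210769706-210769955 on the minus strand, and the capitals mark the match on either strand.
Gclm: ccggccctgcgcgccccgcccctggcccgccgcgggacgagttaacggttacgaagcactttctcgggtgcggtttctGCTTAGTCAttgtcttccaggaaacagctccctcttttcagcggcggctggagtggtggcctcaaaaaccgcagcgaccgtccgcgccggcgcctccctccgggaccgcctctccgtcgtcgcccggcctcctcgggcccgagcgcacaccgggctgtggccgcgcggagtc
Gstp1: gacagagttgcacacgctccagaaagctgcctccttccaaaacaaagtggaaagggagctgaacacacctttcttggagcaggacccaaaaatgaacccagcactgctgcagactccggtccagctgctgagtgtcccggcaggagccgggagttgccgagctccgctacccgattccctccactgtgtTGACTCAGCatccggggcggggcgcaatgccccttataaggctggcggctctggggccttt
A match is a description of the letters and no evidence that a factor binds there.

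Values are linear signal intensities, scaled by the authors to one target, and their mean without the outer 2% of probe sets at either end was 500 on every array. Between 27.9% and 31.1% of probe sets on an array reached 400. The muscle of origin was borne out by Myh13, the myosin of eye muscle, at 17345 to 27950 on EOM arrays, 208 to 323 on EDL arrays and 5.43 to 36.5 on DIA arrays. A few arrays stood apart. GAPDH probe sets at the 3′ and 5′ ends had a ratio (3′ over 5′) of 2.66 on DIA EAMG 3 and at most 1.33 elsewhere. The poly-A spike-ins, foreign RNA put in ahead of labelling, averaged a signal of 842 on DIA EAMG 2, 586 on EOM EAMG 2 and 11357 to 27513 elsewhere. The summed signal of 10 slow-fibre genes was 294125 on EDL EAMG 2 and 90956 to 110072 on the other 5 EDL arrays. That array was also high in the sums of 8 adipocyte markers (23303, against 9289 to 12128) and 6 liver markers (1085, against 305 to 480). Only 1 of the 6 liver markers reached 400 on any array, so a liver sum does not stand for 6 expressed genes. The arrays that stood apart were kept, and the counts without them are given beside the results they touch.

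Among the members that passed, more were higher in EAMG than lower, while over all 37 tested members the direction was nearly even in DIA and EOM. Log2 changes above 0 numbered 19, 25 and 19 in DIA, EDL and EOM. The change is the difference of mean log2 signals, EAMG minus control, tested by a single limma fit over the 18 arrays, and a gene passed at a Benjamini-Hochberg adjusted p under 0.05 over all probe sets tested. In DIA 6 of the 37 tested members passed as higher (1.71% of the 7799 genes did) and 0 as lower (1% of genes). In EDL 9 passed as higher (3.6% of genes) and 1 as lower (3.04%). In EOM 4 passed as higher (0.987%) and 0 as lower (0.654%). At an unadjusted p under 0.05, 1 member was lower in DIA and 2 in EOM. In at least 1 muscle 12 members passed (8.89% of genes), 11 as higher (4.97%) and 1 as lower (3.94%). Counted instead by arrays that do not overlap, 12 members were higher and 3 lower in DIA (14.7% and 11.4% of genes), 12 and 5 in EDL (14% and 12.3%), and 11 and 10 in EOM (13% and 12.6%). In all 3 muscles 3 passed as higher, against 0.167% of genes: Fmo2, Sult1a1 and Txnip. With the replicate number as a block Txnip passed in DIA alone. The members were chosen with earlier results of these data known. The shares of all genes, here and below, are therefore a background and no test of the members.

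The 37 members had median log2 changes of 0.05, 0.26 and 0.04 in DIA, EDL and EOM, and the medians over all genes tested were 0.03, 0.01 and -0.002. The rise was carried by a few members of some classes. The mixed class had a median log2 change of 1.14, 1.38 and 0.97 in DIA, EDL and EOM, and the glutathione S-transferases 0.37, 0.29 and 0.28. The peroxiredoxins had -0.26, -0.07 and -0.26. These medians describe the classes and were not tested.

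**Figure D1:**
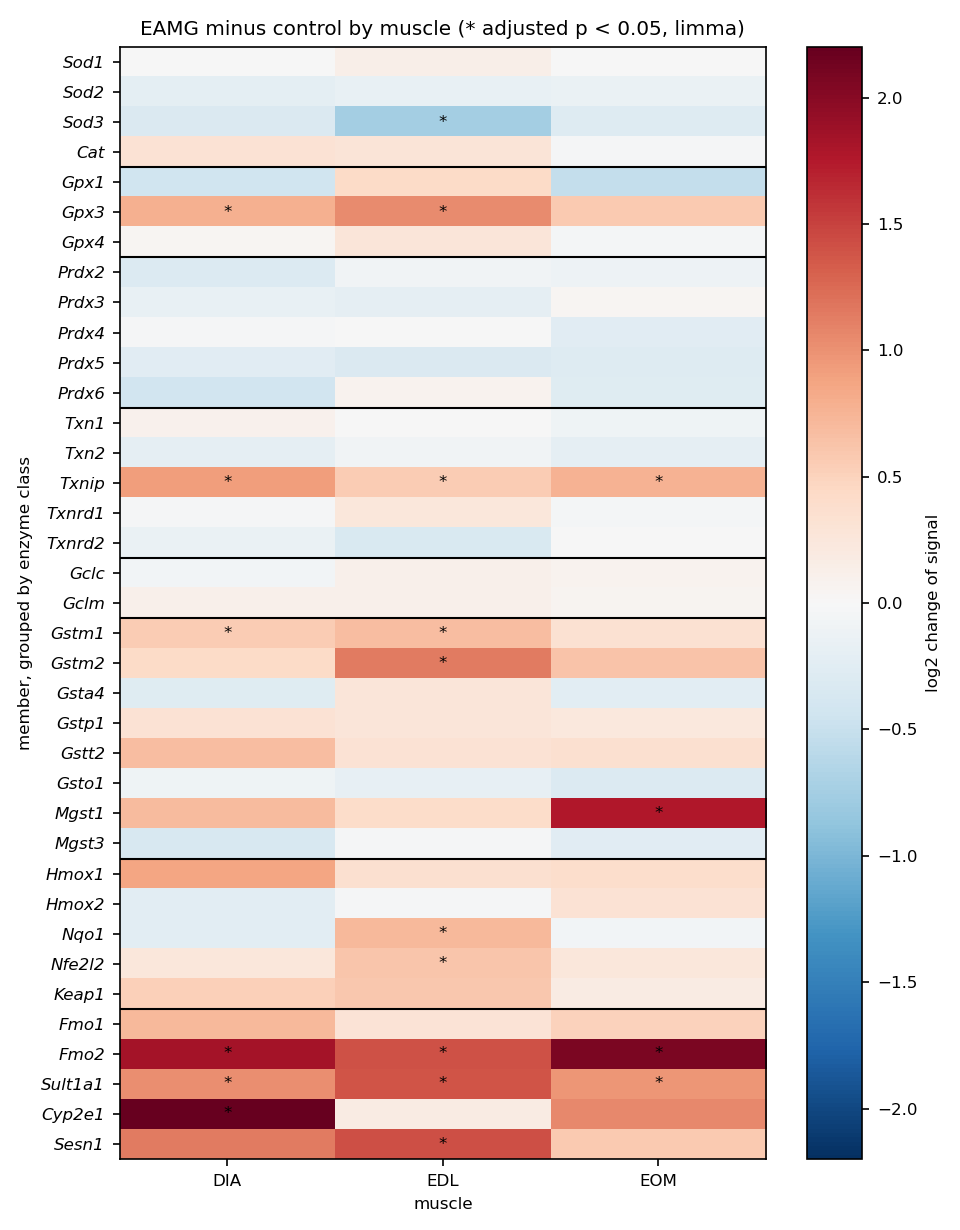
Colour gives the log2 change of signal, EAMG minus control, for the 37 tested members (rows, grouped by class) in DIA, EDL and EOM (columns), with an asterisk where limma's adjusted p was under 0.05. Fmo2, Sult1a1 and Txnip have an asterisk in all 3 columns, and Sod3 in EDL is the only asterisk on a blue cell.

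These single-muscle calls are close to the threshold for many members. Fitted on the arrays of its own muscle alone, limma called 0 members in DIA and 0 in EDL (8 and 3 of all genes) and 5 in EOM (124 of all genes), while 12, 11 and 13 had an unadjusted p under 0.05. Without EDL EAMG 2 and DIA EAMG 3, 4 passed in DIA, 6 in EDL and 3 in EOM, against 1.55%, 1.96% and 1.74% of all genes. With DIA EAMG 2 and EOM EAMG 2 omitted as well, 1 DIA EAMG array is left. The log2 changes in DIA of the 6 members called there then ran from 0.37 (Gstm1) to 1.45 (Fmo2).

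Some marker sums stood apart between EAMG and control arrays in each muscle, while most overlapped. Single genes were often apart as well, by the shares of genes given above for arrays that do not overlap. A sum that is apart is therefore weak evidence of a change. The summed signal of 8 macrophage markers was 6788 to 10062 in DIA control and 10442 to 14377 in DIA EAMG, and that of 7 skeletal muscle markers 209160 to 224397 and 187579 to 206501, neither overlapping. In EDL 6 smooth muscle markers were at 27417 to 27776 in control and 28705 to 29432 in EAMG, and 7 orbital gland markers at 717 to 1253 and 500 to 654. Of the 5 smooth muscle markers tested, 2 had a log2 change above 0 in EDL (median -0.04), so that sum does not stand for its members. In EOM 8 adipocyte markers were at 16335 to 17825 and 18239 to 22207, 10 slow-fibre genes at 106557 to 111938 and 89090 to 105597, and the orbital gland markers are given beside Mgst1. Red cell markers, as a sum, were lower in EAMG without overlap in all 3 muscles and are given beside Gpx1. By limma at least 1 red cell marker passed as lower in each muscle, and 1 orbital gland marker passed as higher in EOM. The other sums named here held no marker that passed in the muscle concerned. The part of these markers in the members' changes was not tested.

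The mixed class held the largest rises. Fmo2, a flavin monooxygenase best known from lung, had signals of 360, 517 and 272 on the DIA control arrays and 1009, 1516 and 1514 on the DIA EAMG arrays. In EDL they were 301, 270 and 227 against 647, 812 and 646, and in EOM 404, 323 and 205 against 1581, 1130 and 1116. Every EAMG array stood above every control array of its muscle, with no overlap. The log2 change was 1.84 in DIA (SE 0.27, adjusted p = 0.00277), 1.40 in EDL (SE 0.27, adjusted p = 0.009) and 2.07 in EOM (SE 0.27, adjusted p = 0.000848), which are rises of 3.58-, 2.64- and 4.21-fold. The call held in each muscle without any single array. A second probe set of Fmo2 passed in all 3 muscles, at 1.21, 1.21 and 1.58, and the dimmest of the 3 at 2.04 in EDL and 2.50 in EOM, with 1.61 in DIA (adjusted p = 0.0933).

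Sult1a1, a sulfotransferase of phenols and of thyroid and steroid hormones, had signals of 1758, 2040 and 1787 in DIA control and 3166, 4836 and 3525 in DIA EAMG. In EDL they were 1281, 1529 and 967 against 2550, 4125 and 3145, and in EOM 2242, 2596 and 2570 against 5796, 4961 and 3900. The groups did not overlap in any muscle. The rises on the log2 scale were 1.02 in DIA (SE 0.21, adjusted p = 0.0219), 1.38 in EDL (adjusted p = 0.00298) and 0.97 in EOM (adjusted p = 0.0319). The EDL call held without any single array. The DIA call was lost without DIA control 1 or 3 or DIA EAMG 2 or 3 (adjusted p up to 0.115), and the EOM call without any EOM control array or EOM EAMG 1 or 2 (up to 0.139).

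Sesn1, a sestrin that answers to p53 and FoxO factors and restrains mTOR signalling, had signals of 1220, 1353 and 1478 in EDL control and 1873, 4532 and 5406 in EDL EAMG. EDL EAMG 1 lay close to the controls and the other 2 far above them. The rise was 1.41 (SE 0.30, adjusted p = 0.0161), and the call was lost without EDL control 1, EDL EAMG 2 or EDL EAMG 3 (adjusted p up to 0.0733). In DIA the signals were 1633, 1631 and 1935 against 2710, 4392 and 4637, again without overlap, and the log2 change of 1.14 missed the threshold (adjusted p = 0.0558). In EOM it was 0.57 (adjusted p = 0.449). A dimmer second probe set of Sesn1 passed in no muscle.

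Cyp2e1, a cytochrome P450 abundant in liver that oxidizes ethanol and ketones, had signals of 463, 475 and 552 in DIA control and 944, 4479 and 2725 in DIA EAMG. The 3 EAMG arrays were all above the controls and differed widely among themselves. The rise of 2.19 (SE 0.52, adjusted p = 0.0385) did not pass in 10 of 18 fits with 1 array omitted: those without any DIA control array, DIA EAMG 2 or 3, EDL control 1 or 2, or any EOM control array (adjusted p up to 0.207, without DIA EAMG 2). The summed signal of 6 liver markers was 5961 on DIA control 2, 2589 on DIA EAMG 2 and 429 to 1272 on the other 4 DIA arrays, and that of 8 adipocyte markers was 27987 to 36246 in DIA control and 31666 to 41328 in DIA EAMG. Their part in the Cyp2e1 values was not tested. In EDL the log2 change of Cyp2e1 was 0.19 (adjusted p = 0.864) and in EOM 1.05 (adjusted p = 0.417), where 569 on EOM EAMG 1 stood apart from 171 and 149.

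Fmo1, the flavin monooxygenase of rat liver and kidney, passed in no single muscle. Its signals were 686, 915 and 683 against 948, 1591 and 1257 in DIA, 380, 439 and 340 against 475, 556 and 403 in EDL, and 665, 653 and 562 against 715, 1072 and 927 in EOM. The EAMG arrays were above the controls in DIA and EOM and overlapped them in EDL. The log2 change was 0.71 (adjusted p = 0.0671), 0.30 (0.385) and 0.51 (0.263), and the mean over the muscles passed at 0.51.

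**Figure D2:**
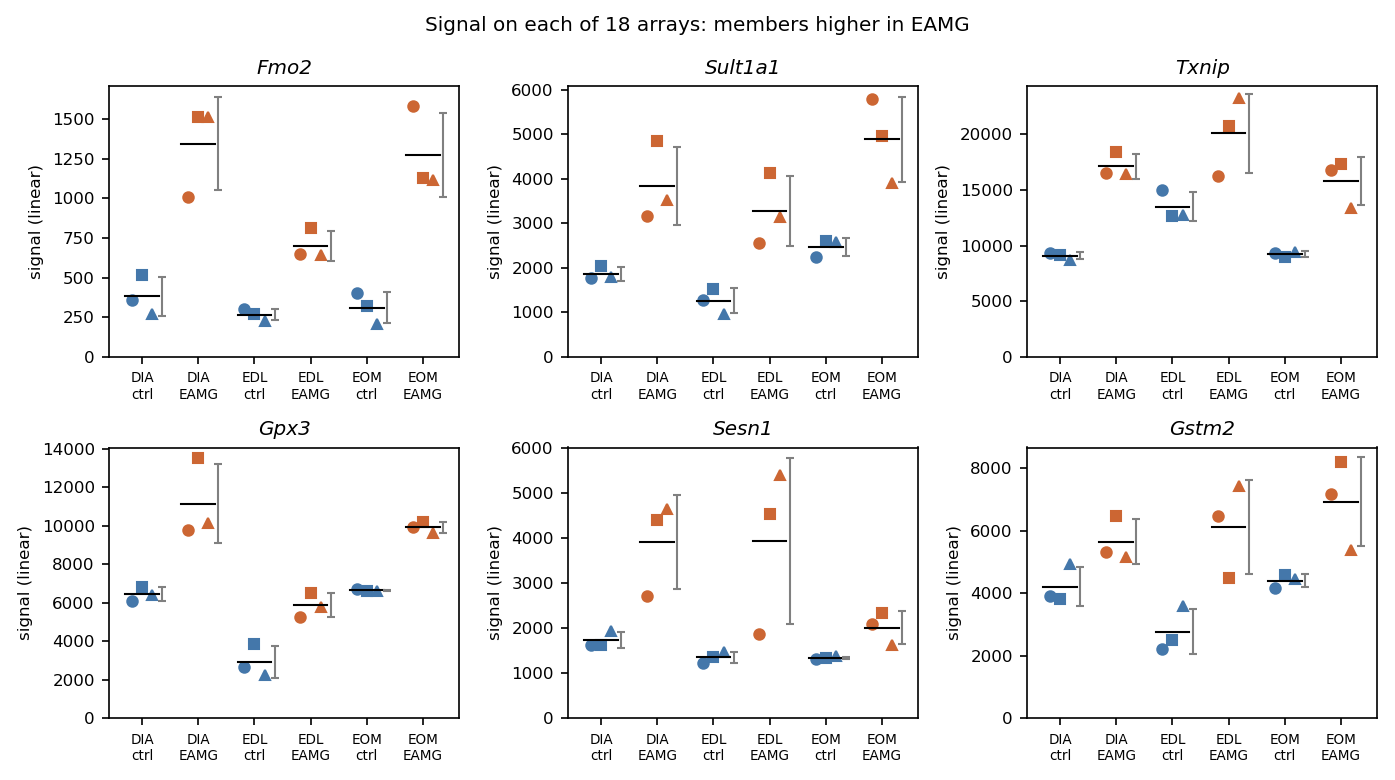
Linear signal (vertical axes, each from 0) of 6 members on each of the 18 arrays, by muscle and treatment, with control arrays in blue and EAMG arrays in orange. Symbols stand for replicate numbers 1 (circle), 2 (square) and 3 (triangle), black lines for the mean and grey bars for the SD of 3 arrays; the EAMG arrays lie above the control arrays of their muscle in every panel, although the distance is small for Sesn1 in EOM and for Gstm2 in DIA.

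In the thioredoxin system a single member passed. Txnip, which binds thioredoxin and restrains its reducing activity and glucose uptake, had signals of 9348, 9197 and 8736 in DIA control and 16497, 18457 and 16449 in DIA EAMG. In EDL they were 15012, 12679 and 12786 against 16279, 20723 and 23247, and in EOM 9337, 8939 and 9445 against 16800, 17311 and 13358. The groups were apart in each muscle, and closest in EDL, where control Txnip was also highest. The rises were 0.91 in DIA (SE 0.13, adjusted p = 0.00325), 0.56 in EDL (adjusted p = 0.0248) and 0.77 in EOM (adjusted p = 0.0093). The DIA call held without any single array, the EDL call was lost without EDL control 2 or 3 or EDL EAMG 2 or 3 (adjusted p up to 0.112), and the EOM call without EOM control 2 or EOM EAMG 1 (up to 0.0541). With the replicate number as a block the adjusted p of Txnip was 0.0229, 0.0598 and 0.0523 in DIA, EDL and EOM.

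The enzymes that Txnip acts on or beside did not pass in any EAMG comparison. These were the thioredoxins Txn1 and Txn2, of the cytosol and the mitochondria, and their reductases Txnrd1 and Txnrd2. EAMG arrays lay below the controls without overlap for Txn1 and Txn2 in EOM (12.6% of genes did) and Txnrd2 in EDL (12.3%). All other comparisons of these enzymes overlapped. At an unadjusted p under 0.05, 1 of them was lower in EDL and 1 in the mean. The largest mean changes among their chosen probe sets were Txn2 at -0.16 (95% interval -0.30 to -0.02, adjusted p = 0.094) and Txnrd2 at -0.16 (-0.34 to 0.02, adjusted p = 0.196). A dimmer second probe set of Txnrd1 went the other way, with a mean change of 0.39 (0.03 to 0.75, adjusted p = 0.114). Its changes were 0.41, 0.60 and 0.16 in DIA, EDL and EOM, with overlapping arrays, and none passed. For Txn1, the interval of the mean change was -0.12 to 0.11.

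Among the glutathione peroxidases Gpx3, the secreted plasma form, rose. Its signals were 6089, 6830 and 6423 in DIA control and 9784, 13489 and 10145 in DIA EAMG, and 2670, 3852 and 2254 in EDL control and 5275, 6528 and 5799 in EDL EAMG. In EOM they were 6688, 6602 and 6622 against 9939, 10206 and 9612. No EAMG array overlapped the controls of its muscle. The rise was 0.78 in DIA (SE 0.17, adjusted p = 0.0252) and 1.04 in EDL (SE 0.17, adjusted p = 0.0038), and the EOM change of 0.58 did not pass (adjusted p = 0.111). The DIA call was lost without any DIA control array, DIA EAMG 2 or DIA EAMG 3 (adjusted p up to 0.136), and the EDL call held without any single array.

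Gpx1, the abundant form of the cytosol and mitochondria, passed nowhere and had uneven arrays. Its signals were 19202, 16190 and 17823 against 15963, 10732 and 13103 in DIA, and 16061, 16607 and 16883 against 13110, 10489 and 10938 in EOM, with every EAMG array below the controls. In EDL they were 4755, 5145 and 7159 against 5665, 15050 and 4991, where EDL EAMG 2, the array high in slow-fibre genes, stood far above the rest. The log2 change was -0.43 in DIA (adjusted p = 0.453), 0.43 in EDL (0.422) and -0.53 in EOM (0.5). Red blood cells hold much Gpx1, Prdx2 and catalase. The summed signal of 4 red cell markers was 13457 to 20182 in DIA control and 2301 to 5500 in DIA EAMG, 3881 to 5756 and 1417 to 2937 in EDL, and 8968 to 12604 and 2223 to 3779 in EOM. It did not overlap in any muscle, and its part in the values of these 3 enzymes was not tested. In bulk RNA, fewer cells of a type and less RNA per cell cannot be told apart. The mean change of Gpx4, which reduces lipid peroxides in membranes, was 0.09 (95% interval -0.05 to 0.23, adjusted p = 0.352). In EDL its signals were 10314, 10084 and 10678 against 12206, 12689 and 12297, without overlap (14% of genes were higher in this way), and it did not pass. The arrays of Gpx4 overlapped in DIA and EOM.

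The glutathione S-transferases, which join glutathione to electrophiles, held both rising and falling members. Gstm1 had signals of 579, 510 and 633 in DIA control and 738, 874 and 912 in DIA EAMG, and 459, 405 and 417 against 663, 631 and 755 in EDL. The groups were apart in both muscles. The rises were 0.55 in DIA (SE 0.14, adjusted p = 0.0468) and 0.68 in EDL (SE 0.14, adjusted p = 0.0129). The DIA call was kept only in the fits that left out DIA EAMG 1, EDL EAMG 2 or 3, or EOM EAMG 1 or 3, and was lost in the other 13 (adjusted p up to 0.189). The EDL call was lost without EDL control 2 or EDL EAMG 3 (up to 0.0608). In EOM the signals were 1148, 1093 and 1304 against 1736, 1546 and 1238, which overlapped, at a log2 change of 0.34 (adjusted p = 0.29).

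Gstm2, a second mu-class transferase that muscle expresses, had signals of 2225, 2517 and 3580 in EDL control and 6477, 4469 and 7413 in EDL EAMG. The lowest EAMG array was above the highest control array. The rise was 1.14 (SE 0.21, adjusted p = 0.00785), a fold of 2.2, and it held without any single array. In DIA the signals were 3905, 3799 and 4924 against 5305, 6464 and 5166 and in EOM 4176, 4587 and 4436 against 7183, 8190 and 5389. These did not overlap either, at log2 changes of 0.43 (adjusted p = 0.277) and 0.63 (0.175). The mu-class genes are alike in sequence, and cross-hybridization between their probe sets was not tested.

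Mgst1, a membrane-bound transferase of the endoplasmic reticulum with peroxidase activity, had signals of 1201, 1002 and 1058 in EOM control and 3306, 2776 and 5339 in EOM EAMG. The groups did not overlap. The rise was 1.76 (SE 0.41, adjusted p = 0.0468), a fold of 3.38, and did not pass in 14 of 18 fits with 1 array omitted, the exceptions being those without DIA control 2, DIA EAMG 1, DIA EAMG 2 or EDL control 3 (adjusted p up to 0.166, without EOM control 2). The summed signal of 7 orbital gland markers was 2313 to 3147 in EOM control and 5609 to 10505 in EOM EAMG, and that of 8 macrophage markers 6570 to 13646 and 10136 to 22247. Among the 6 EOM arrays EOM EAMG 3 was highest in Mgst1 and in both sums, and lowest in the sum of 7 skeletal muscle markers, at 160569. Over all 18 arrays the highest orbital gland sum was 11557, on DIA control 2. The part of these in the Mgst1 values was not tested. In DIA the signals were 2228, 5002 and 2427 against 2861, 7770 and 5134, overlapping, at a log2 change of 0.69 (adjusted p = 0.366). DIA control 2 and DIA EAMG 2, high in Mgst1 within their groups, were the 2 arrays high in liver markers. In EDL the signals were 568, 622 and 236 against 482, 663 and 609, at 0.41 (0.587).

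Gstp1, Gstt2 and Gsto1 passed only in the mean over the muscles. Gstp1, the pi-class transferase, had signals of 2584, 2414 and 2533 against 2739, 3108 and 3557 in DIA, 2852, 2631 and 3034 against 3245, 3300 and 3642 in EDL, and 3503, 3425 and 3647 against 3898, 3745 and 4815 in EOM. The EAMG arrays were above the controls in each muscle by small steps. Gstt2, a theta-class enzyme, had 303, 313 and 329 against 443, 567 and 512 in DIA, 455, 406 and 377 against 339, 524 and 753 in EDL, and 323, 409 and 256 against 496, 353 and 401 in EOM. It was apart in DIA alone. Gsto1, an omega-class enzyme that reduces dehydroascorbate, had 4310, 3854 and 3644 against 3645, 3624 and 3831 in DIA, 4463, 4200 and 4138 against 3812, 4055 and 3454 in EDL, and 6882, 6862 and 6931 against 6091, 5394 and 5289 in EOM. Its EAMG arrays were below the controls in EDL and EOM and overlapped them in DIA.

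Gsta4, which clears 4-hydroxynonenal, and Mgst3, a microsomal transferase and peroxidase, passed in no EAMG comparison. Their mean changes were -0.08 (95% interval -0.27 to 0.10, adjusted p = 0.544) and -0.21 (-0.44 to 0.02, adjusted p = 0.175).

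The superoxide dismutases and catalase held the only member that fell in a single muscle. Sod3, the extracellular dismutase bound to matrix heparan sulfate, had signals of 2559, 2581 and 2419 in EDL control and 1871, 1247 and 1429 in EDL EAMG. All EAMG arrays were below all controls. The log2 change was -0.75 (SE 0.15, adjusted p = 0.0129), and the call was lost without EDL control 1, EDL EAMG 2 or EDL EAMG 3 (adjusted p up to 0.063). In DIA the signals were 1626, 1807 and 1853 against 1402, 1151 and 1750, and in EOM 3539, 3325 and 3653 against 2789, 2704 and 3119. The groups overlapped in DIA and not in EOM, and neither change passed (-0.32, adjusted p = 0.271, and -0.29, adjusted p = 0.453).

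Sod1 of the cytosol, Sod2 of the mitochondria and catalase of the peroxisome passed in no EAMG comparison. Sod1 was tightly bounded, with a mean change of 0.04 and a 95% interval of -0.11 to 0.18. For Sod2 the mean change was -0.18 (-0.33 to -0.02, adjusted p = 0.108). Cat had 0.19 (-0.15 to 0.53, adjusted p = 0.416), and its signals in DIA EAMG were 4869, 6064 and 10729, the last on the array with the high GAPDH ratio.

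**Figure D3:**
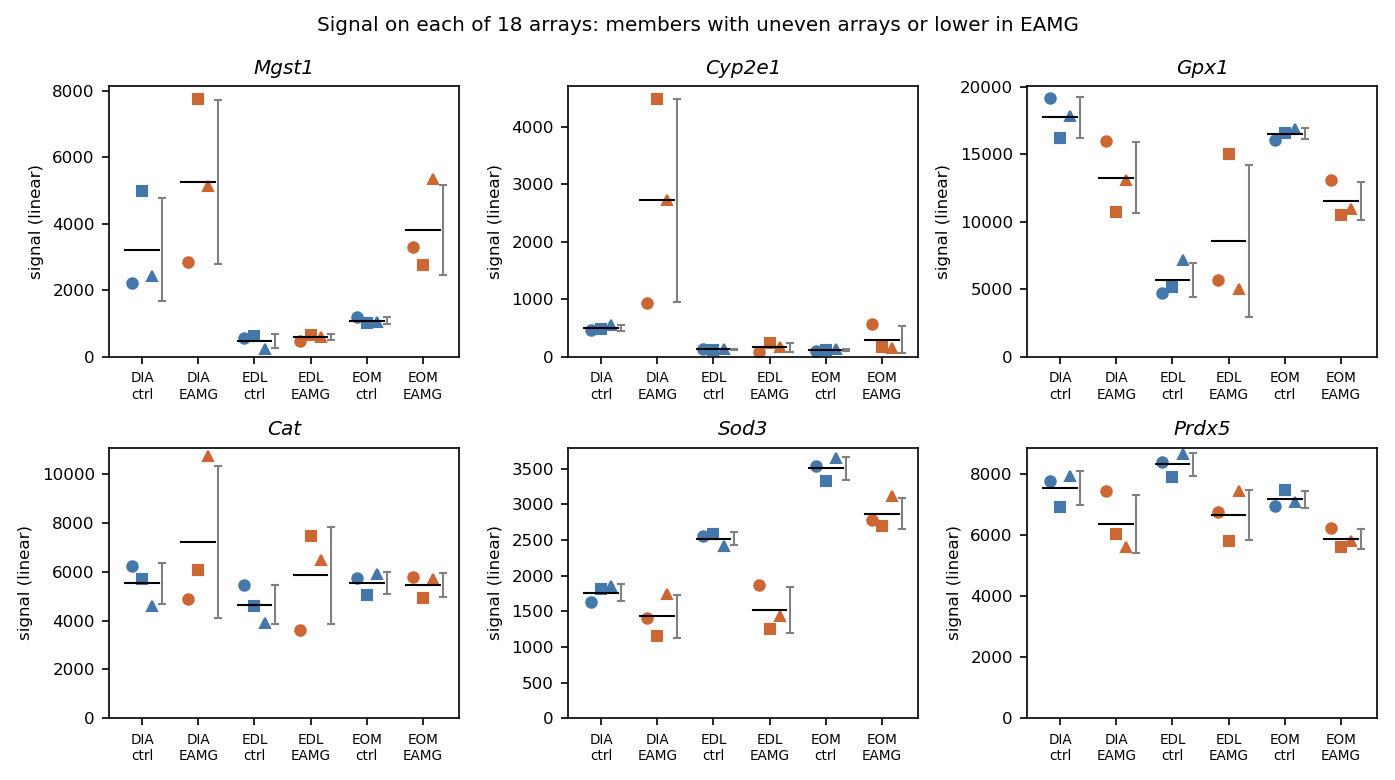
Linear signal (vertical axes, each from 0) of 6 members on each of the 18 arrays, control in blue and EAMG in orange, with circles, squares and triangles for replicate numbers 1, 2 and 3, black lines for the mean and grey bars for the SD of 3 arrays. Cyp2e1 and Mgst1 are spread widely in DIA EAMG, EDL EAMG 2 stands apart in Gpx1 at 15050, and Sod3 in EDL EAMG lies below all EDL control arrays.

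No peroxiredoxin passed in a single muscle, where at an unadjusted p under 0.05 1 of the 5 tested was lower in each muscle. Prdx5, a peroxiredoxin of mitochondria and peroxisomes, passed in the mean. Its signals were 7786, 6924 and 7961 against 7437, 6034 and 5614 in DIA, 8416, 7908 and 8663 against 6758, 5805 and 7455 in EDL, and 6971, 7499 and 7084 against 6253, 5613 and 5812 in EOM. The EAMG arrays were below the controls in EDL and EOM and overlapped them in DIA. Prdx2, the thiol peroxidase abundant in red cells, had a mean change of -0.16 (95% interval -0.29 to -0.03, adjusted p = 0.0768), and in DIA its signals of 7414, 5870 and 6259 were below the controls at 8438, 7708 and 7865 (log2 change -0.30, adjusted p = 0.13). Prdx6, which also has phospholipase activity, had a mean change of -0.20 (-0.49 to 0.09, adjusted p = 0.326).

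The glutathione synthesis genes that could be tested were Gclc and Gclm, the catalytic and modifier subunits of glutamate-cysteine ligase, whose reaction limits the rate of synthesis. Neither passed. The mean change was 0.04 for Gclc (95% interval -0.17 to 0.25, adjusted p = 0.809) and 0.09 for Gclm (-0.09 to 0.28, adjusted p = 0.482).

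In the class around Nrf2 the only single-muscle calls were those of Nqo1 and Nfe2l2 in EDL. These were lost without EDL EAMG 2 and DIA EAMG 3, and no difference of changes between muscles passed in the class. Nqo1, a quinone reductase and classic Nrf2 target, had signals of 734, 628 and 775 in EDL control and 857, 1210 and 1499 in EDL EAMG, without overlap. The rise was 0.71 (SE 0.18, adjusted p = 0.0329). In DIA and EOM its arrays overlapped, at log2 changes of -0.23 (adjusted p = 0.512) and -0.05 (adjusted p = 0.933). Nfe2l2, which encodes Nrf2 itself, had 1422, 1413 and 1688 in EDL control and 1833, 2622 and 2539 in EDL EAMG. Again the groups were apart, and the rise was 0.62 (SE 0.13, adjusted p = 0.0141). Both calls were lost without EDL control 1, EDL control 2, EDL EAMG 2 or EDL EAMG 3, with adjusted p up to 0.142 for Nqo1 and 0.0681 for Nfe2l2. EDL EAMG 2 is the array high in slow-fibre genes.

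In DIA, Nfe2l2 had 2288, 2082 and 2153 against 2467, 2498 and 2783, and in EOM 1970, 1968 and 1860 against 2457, 2189 and 2260. These did not overlap either, at 0.25 in each (adjusted p = 0.299 and 0.432). Keap1, which holds Nrf2 in the cytosol and marks it for degradation, passed only in the mean. Its signals were 937, 975 and 1091 against 1025, 1764 and 1646 in DIA, 933, 895 and 938 against 1121, 1553 and 1571 in EDL, and 797, 863 and 768 against 1023, 1068 and 707 in EOM. It was apart in EDL alone. A dimmer second probe set of Keap1 passed nowhere and had a mean change of -0.05.

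The heme oxygenases, which break down heme, did not pass. Hmox1, the inducible form and an Nrf2 target, had a mean change of 0.54 (95% interval -0.05 to 1.12, adjusted p = 0.18), with low signals of 53 to 182 on control arrays and 535 on DIA EAMG 2. That array, of low poly-A signal, was the only one on which Hmox1 reached the signal minimum for testing. On the other EAMG arrays Hmox1 was at most 265. Hmox2, the constitutive form, had a mean change of 0.02 (-0.18 to 0.22, adjusted p = 0.897).

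The mean of the 3 EAMG changes, taken in the same fit, averages the muscles, and its SE and adjusted p treat them as independent. A large change in 1 muscle can carry this mean, as for Cyp2e1 (2.19, 0.19 and 1.05 in DIA, EDL and EOM) and Mgst1 (0.69, 0.41 and 1.76). By it 14 members passed as higher (11.5% of the 7799 genes) and 3 as lower (9.55%). The higher members were Fmo2 at 1.77 (SE 0.15, adjusted p = 1.22e-05), Cyp2e1 at 1.14 (SE 0.30), Sult1a1 at 1.12 (SE 0.12), Sesn1 at 1.04 (SE 0.17), Mgst1 at 0.95 (SE 0.24), Gpx3 at 0.80 (SE 0.10), Txnip at 0.75 (SE 0.08), Gstm2 at 0.73 (SE 0.12), Gstm1 at 0.52 (SE 0.08), Fmo1 at 0.51 (SE 0.12), Gstt2 at 0.45 (SE 0.14), Keap1 at 0.44 (SE 0.11), Nfe2l2 at 0.37 (SE 0.07) and Gstp1 at 0.27 (SE 0.07). The lower members were Sod3 at -0.45 (SE 0.09, adjusted p = 0.00311), Prdx5 at -0.29 (SE 0.07, adjusted p = 0.00967) and Gsto1 at -0.19 (SE 0.06, adjusted p = 0.0277). The classes differ in their counts: 5 of 5 tested members of the mixed class and 5 of 8 glutathione S-transferases passed as higher, and 0 of 5 peroxiredoxins did, nor was any higher at an unadjusted p under 0.05. Because members were chosen with earlier results of these data known, these counts describe the classes and do not test them. Of the 37 members 19 passed neither here nor in a single muscle, among them every tested enzyme of glutathione synthesis and every thioredoxin and thioredoxin reductase.

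The calls of Gstt2 and Gsto1 were near the threshold and did not hold in every fit with 1 array omitted. Gstt2 was lost without DIA control 1, DIA EAMG 2, EOM control 1, EOM control 3 or EOM EAMG 1 (adjusted p up to 0.0636), and Gsto1 without DIA control 1, DIA EAMG 2, EDL control 1, EDL EAMG 3 or EOM control 3 (up to 0.0594). The other 15 held in all 18 such fits. Without the 4 arrays that stood apart 7 members passed: Fmo2, Sult1a1, Gpx3, Txnip, Gstm1, Gstm2 and Sod3. The calls of Cyp2e1, Sesn1, Fmo1, Mgst1, Gstp1, Gstt2, Keap1, Nfe2l2, Prdx5 and Gsto1 were lost (adjusted p of 0.0507 for Sesn1 to 0.279 for Keap1), which leaves 2 of 5 higher in the mixed class and 2 of 8 among the glutathione S-transferases.

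**Figure D4:**
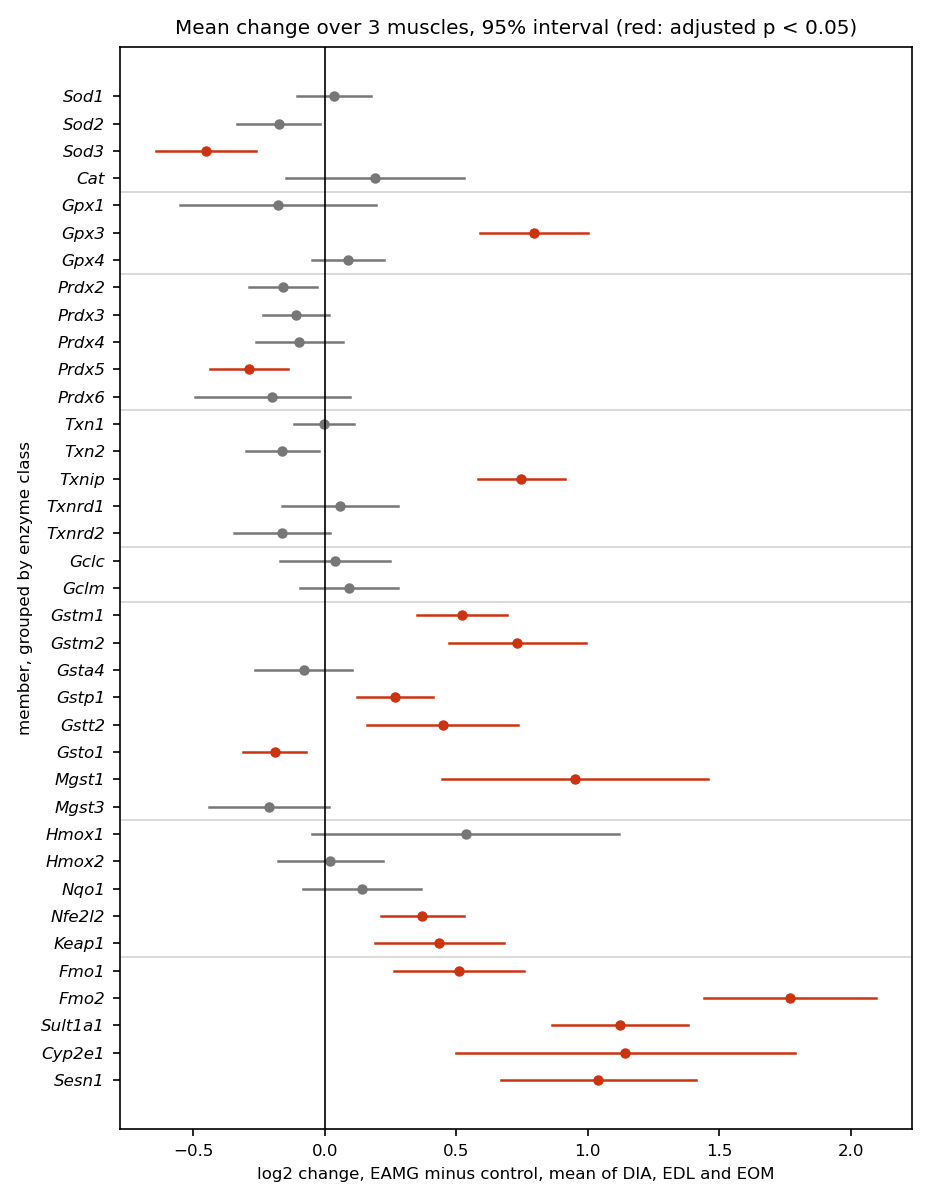
Mean of the EAMG changes of DIA, EDL and EOM (horizontal axis, log2 scale) with its 95% interval from limma for the 37 tested members, grouped by class, in red where the adjusted p was under 0.05. The largest is Fmo2 at 1.77, the mixed class at the bottom lies wholly to the right of 0, and Sod3 at -0.45 is the lowest.

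Whether the change itself differed between muscles was tested as a difference of changes. No member passed for EDL against DIA (0.0128% of genes did), EOM against DIA (0.0128%) or EOM against EDL (0.115%). At an unadjusted p under 0.05 limma gave 4, 1 and 4 members. The widest of these were Cyp2e1, with a difference of changes, EDL minus DIA, of -2.00 (95% interval -3.58 to -0.42, adjusted p = 0.842), and Mgst1, whose change was larger in EOM than in EDL by 1.35 (0.11 to 2.58, adjusted p = 0.444). The smallest p was that of Nqo1, with a change larger in EDL than in DIA by 0.93 (0.39 to 1.48, adjusted p = 0.758). The intervals are wide, so a pass in one muscle and none in another does not show that the muscles differ, nor that they responded alike.

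The control arrays show where the enzymes are high without AChR immunization. The 3 pairs of muscles share control arrays. Of the 37 members, 2 were higher and 14 lower in EDL than in DIA (10.2% and 16.2% of the 7799 genes), 6 were higher and 3 lower in EOM than in DIA (11.5% and 11.2%), and 18 were higher and 1 lower in EOM than in EDL (25.8% and 17.9%). The median log2 difference of the members was -0.28, -0.04 and 0.31, against -0.06, 0.01 and 0.07 over all genes tested.

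Between EDL and DIA the largest differences were those of Mgst1, Cyp2e1 and Gpx1. Mgst1 was at 568, 622 and 236 in EDL against 2228, 5002 and 2427 in DIA, a difference of -2.78 (SE 0.41, adjusted p = 0.000249), which was -2.34 at its smallest when 1 array was left out. Cyp2e1, at 135, 120 and 139 against 463, 475 and 552, differed by -1.92 (SE 0.52, adjusted p = 0.0153). Gpx1, at 4755, 5145 and 7159 against 19202, 16190 and 17823, differed by -1.66 (SE 0.30, adjusted p = 0.0013). In each the arrays of the muscles were wholly apart. Marker sums were apart too: in EDL and DIA control arrays they were 3881 to 5756 and 13457 to 20182 for red cells, 9289 to 11395 and 27987 to 36246 for adipocytes, 1748 to 3854 and 6788 to 10062 for macrophages, 307 to 421 and 492 to 5961 for liver, and 90956 to 105601 and 232801 to 250251 for slow fibres. Their part in these differences was not tested. The 2 members higher in EDL were Txnip at 0.57 (adjusted p = 0.00692) and Sod3 at 0.52 (adjusted p = 0.0243), the latter lost without DIA control 1 or 2 or EDL control 1 or 2 (adjusted p up to 0.0837).

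Between EOM and DIA the largest were Cyp2e1 at -2.07 (SE 0.52, adjusted p = 0.01), Mgst1 at -1.47 (SE 0.41, adjusted p = 0.018) and Gstm1 at 1.04 (SE 0.14, adjusted p = 6.18e-05). The Mgst1 call was lost without DIA control 2, EOM control 2 or EOM control 3 (adjusted p up to 0.0905), and DIA control 2 was also the array with the highest liver marker sum. Gstm1 stood at 1148, 1093 and 1304 in EOM and 579, 510 and 633 in DIA. Sod3 at 0.99, Gsto1 at 0.81, Hmox2 at 0.75, Prdx4 at 0.73 and Gstp1 at 0.49 were also higher in EOM, and Mgst3 at -0.66 was lower, a call lost without DIA control 1, EOM control 2 or EOM control 3 (adjusted p up to 0.0844). Prdx4 is the peroxiredoxin of the endoplasmic reticulum. The liver, adipocyte and slow-fibre sums in EOM control, at 281 to 435, 16335 to 17825 and 106557 to 111938, were also below those of DIA control, and their part was not tested.

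Between EOM and EDL the largest were Gsta4, Gpx1 and Gstm1, all higher in EOM. Gsta4 was at 1182, 1290 and 1183 in EOM and 330, 282 and 271 in EDL, a difference of 2.05 (SE 0.15, adjusted p = 1.48e-07). Gpx1 differed by 1.56 (SE 0.30, adjusted p = 0.000817) and Gstm1 by 1.47 (SE 0.14, adjusted p = 1.32e-06). The only member lower in EOM was Txnip at -0.54 (adjusted p = 0.0046). All calls named in this pair held without any single array. Red cell markers, summed, were 3881 to 5756 in EDL control and 8968 to 12604 in EOM control, beside Gpx1 and Prdx2 (0.94, adjusted p = 6.9e-06). The adipocyte and macrophage sums (6570 to 13646 for macrophages in EOM control) were also higher in EOM, and the part of none of these was tested.

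**Figure D5:**
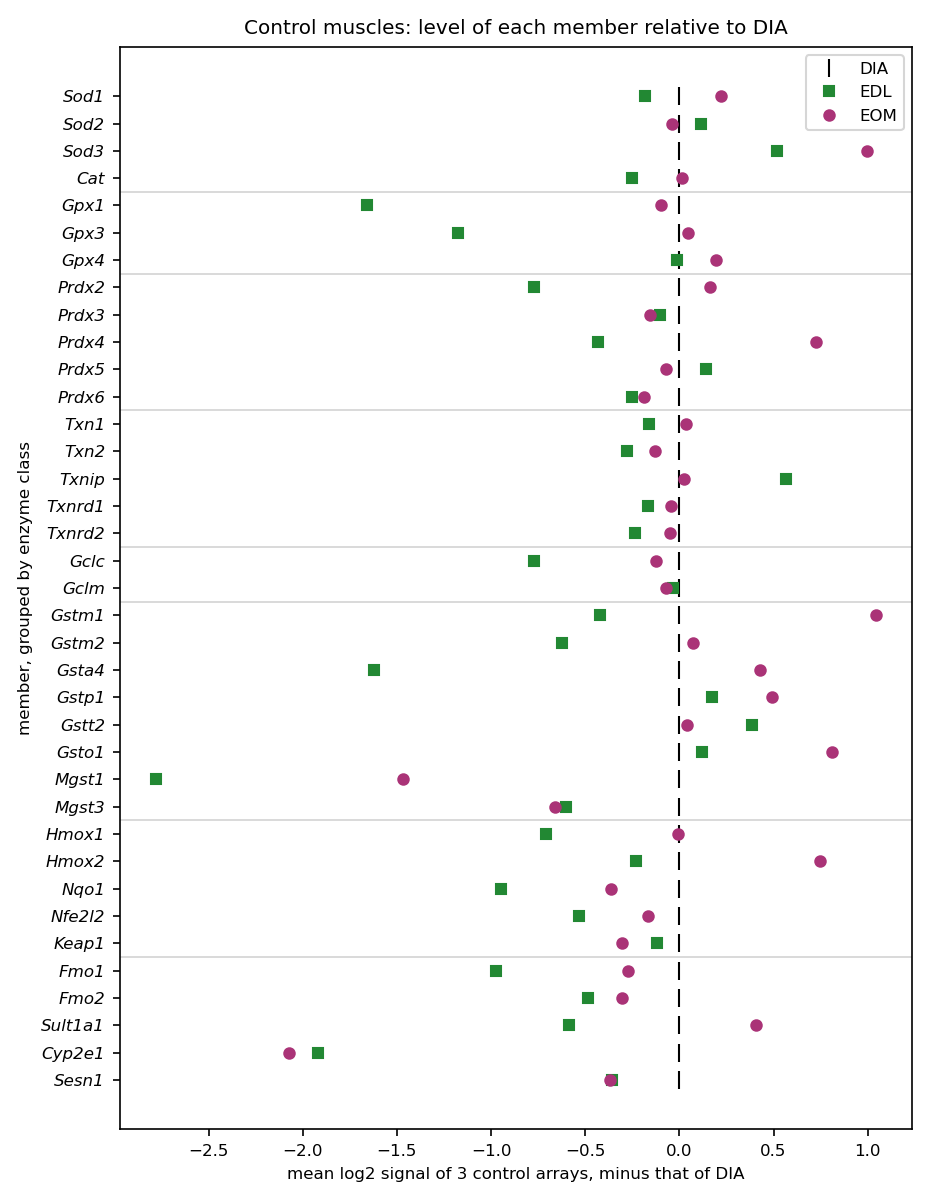
Mean log2 signal of 3 control arrays in EDL (squares) and EOM (circles) minus that of DIA (line at 0), for the 37 tested members grouped by class. Most squares lie left of 0, furthest for Mgst1 at -2.78, while Gstm1 and Sod3 in EOM lie about 1 to the right.

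Other genes of these pathways were taken from lists made beside the members. Of all 7799 genes, 1.71%, 3.6% and 0.987% passed as higher in DIA, EDL and EOM, and 1%, 3.04% and 0.654% as lower. In the mean 11.5% passed as higher and 9.55% as lower. The lists are short, and their counts were not tested against these shares. Among 10 tested genes of NADPH supply, 0 passed limma's test as higher in any muscle, and at an unadjusted p under 0.05 1, 0 and 1 were higher in DIA, EDL and EOM. Me1, the malic enzyme, fell in EDL (-0.46, adjusted p = 0.0484), and Idh2, the mitochondrial isocitrate dehydrogenase, was lower in the mean (-0.30, adjusted p = 0.01). Among 24 other thiol and glutathione enzymes 1 passed as higher in DIA, 2 as higher and 1 as lower in EDL and 1 as higher in EOM, and in the mean 4 passed as higher and 2 as lower. Gstm5 rose in DIA (0.64, adjusted p = 0.017) and EDL (0.47, adjusted p = 0.0384), and Gsta1 in EDL (0.74, adjusted p = 0.0427) and EOM (0.88, adjusted p = 0.0427). Glrx, the glutaredoxin of the cytosol, fell in EDL (-1.14, adjusted p = 0.00302).

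The shares of all genes given for the lists above apply to the following lists too. Among 18 other Nrf2 partners and targets, 0 passed limma's test as higher in a single muscle, and 2, 2 and 0 were higher in DIA, EDL and EOM at an unadjusted p under 0.05. Nqo2, a quinone reductase related to Nqo1, fell in EDL (-0.98, adjusted p = 0.0319) and in the mean (-0.66, adjusted p = 0.00584), and Ephx1, the microsomal epoxide hydrolase, was higher in the mean (0.59, adjusted p = 0.00988). Among 10 other monooxygenases and conjugating enzymes 2 passed in a single muscle, both as higher in EOM: Ces1d, a carboxylesterase (1.44, adjusted p = 0.0167), and Cyp4b1 (0.92, adjusted p = 0.0406). In the mean these and Cyp1b1 (0.57, adjusted p = 0.00523) were higher, and Tpmt, thiopurine methyltransferase (-0.40, adjusted p = 0.00888), and Cyp2j4 (-0.38, adjusted p = 0.0292) were lower. Of 4 sources of superoxide and hydrogen peroxide, Aox1, aldehyde oxidase, rose in DIA (1.43, adjusted p = 0.0422) and EDL (1.52, adjusted p = 0.0215), and Xdh, xanthine dehydrogenase, was higher in the mean (0.87, adjusted p = 0.00328). Of 4 sestrins and Txnip relatives, Arrdc2 rose in DIA (1.69, adjusted p = 0.0114) and EDL (1.62, adjusted p = 0.0073), and Arrdc3 in EDL (1.51, adjusted p = 0.015). Both are arrestin-domain proteins of the same family as Txnip.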

How the data were processed

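RNA of 6 groups, 3 arrays each, was measured on Affymetrix rat expression arrays. The deposited intensities are linear signals, which the authors made with GCOS 2.0 from perfect match and mismatch probe pairs and scaled to one target per array. Replicates were not averaged. The methods describe them as repeats of the experiment, and no label ties a number to a repeat. Deviations of same-numbered EAMG and control arrays correlated at 0.15 to 0.34 in EDL, and in DIA and EOM 1 of the 3 pairs lay near 0. The reported fit does not pair arrays by number, in EDL or elsewhere. A fit with the number as a block is given as an alternative. Array controls aside there were 31042 probe sets, and the platform annotation gives 1 symbol for 20826 of them, several for 436 and none for 9780.

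Signals were taken to log2. Probe sets reaching 400 on at least 1 array (12238) entered limma 3.58.1 (R 4.3.3, lmFit and eBayes) with 1 mean per group over all 18 arrays. P-values were adjusted by Benjamini and Hochberg over these probe sets, and the background shares count 1 probe set per gene. The study's own change calls need probe-level data and were not used. The number of arrays limits the precision.

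Named are all members that passed for EAMG in a muscle, in the mean or in a difference of changes, the remaining members with the largest mean change (up to 2 a class), the 3 largest differences of each control pair, and the listed pathway genes that passed with the largest changes. The members and lists were chosen with earlier results of these data known. Marker lists, given as sums, cover skeletal, extraocular and smooth muscle, slow fibres, red blood cells, adipocytes, macrophages, endothelium, liver, orbital glands and surface epithelium. Plots were made in python 3.11.15 (matplotlib 3.10.9).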

Additional observations from a re-analysis of the deposited data

How the results depend on the processing

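No result reversed under any alternative. The counts of members that passed were 6 in DIA, 10 in EDL, 4 in EOM and 17 in the mean, and 16 (EDL against DIA), 9 (EOM against DIA) and 19 (EOM against EDL) in the control pairs. With no signal minimum they were 2, 4, 1 and 10, and 10 and 12 in the pairs of EDL with DIA and EOM. Calls over all genes fell too, to 0.176%, 0.626%, 0.176% and 5.29%, and 8.94% and 19.5% in those pairs. Fitted on the arrays of its muscle alone, 0 members passed in DIA and 0 in EDL. By the rule of at least 7 of 9 ratios 2-fold or more, 2 met it in DIA (Fmo2, Cyp2e1), 2 in EDL (Fmo2, Sult1a1) and 2 in EOM (Fmo2, Mgst1), and 4, 2 and 4 in the control pairs. With DIA EAMG 2 and EOM EAMG 2, low in poly-A signal, left out 2 passed in DIA (0.423% of all genes) and 2 in EOM (1.15%). Alternatives chosen after seeing the data left out EDL EAMG 2 and DIA EAMG 3, which gave 6 in EDL, or these and the 2 of low poly-A signal, which gave 0 in DIA, 5 in EDL, 1 in EOM and 7 in the mean. Leaving out 1 array at a time gave 2 to 10 in DIA (fewest without DIA control 1, DIA control 3, DIA EAMG 2 or DIA EAMG 3), 4 to 11 in EDL (fewest without EDL EAMG 3), 1 to 4 in EOM (fewest without EOM control 2 or EOM EAMG 1), 15 to 19 in the mean, and 11 to 17, 7 to 10 and 14 to 19 in the control pairs, with 0 throughout for the differences of changes. Adding 100 to each signal, quantile normalization, the minimum on 3 arrays and counting every probe set left each count within 1.5 times its value.

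With the replicate number as a block the counts were 6, 9, 3 and 16, and 16, 9 and 19 in the control pairs, and 0 for the differences of changes. Of all genes 3.21%, 6.36%, 1.42% and 21.5% passed in DIA, EDL, EOM and the mean. Lost calls were those of Gstm1 (adjusted p = 0.0829) and Cyp2e1 (0.0504) in DIA, Txnip in EDL and EOM, and Gstt2 (0.0547) and Gsto1 (0.0585) in the mean. Gained were Fmo1 (0.0386) and Sesn1 (0.0424) in DIA and Hmox1 (0.0476) in the mean, and in the control pair of EDL and DIA Gstm2 was lost and Sult1a1 gained. Hmox1 was tested only because it reached the signal minimum on DIA EAMG 2, an array of low poly-A signal. Its signal was under the minimum on every other array, so little weight can be put on its gained call. No other call changed. Deviations of same-numbered EAMG and control arrays of a muscle correlated at -0.03 to 0.34, over 0.1 in 7 of 9 pairs and in 0 of 18 pairs of unequal number. Of 18 arrays 14 correlated best with their own number, a hint from the data and not from the design. Deviations sum to 0 within a group, so a positive correlation at equal numbers lowers those at unequal numbers. The 0 of 18 is therefore no separate support. In EDL all 3 same-numbered pairs were over 0.1. In DIA and EOM 1 pair each was not. Between muscles, same-numbered arrays of 1 treatment correlated at -0.20 to 0.47, over 0.1 in 9 of 18 pairs. Those of unequal number correlated at -0.45 to 0.24, over 0.1 in 7 of 36 pairs. The reported fit has no block and no term for this.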

Other observations

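The other marker lists stood as follows, as sums of signal. Endothelial markers (6 measured) were at 4982 to 6300 in DIA control and 5536 to 6837 in DIA EAMG, 3388 to 4680 and 3906 to 4337 in EDL, and 5152 to 5820 and 5028 to 5398 in EOM. Smooth muscle markers (6) were at 24543 to 25879 and 23635 to 26302 in DIA, 27417 to 27776 and 28705 to 29432 in EDL, and 20198 to 20743 and 18142 to 24471 in EOM. Surface epithelium markers (7) were at 707 to 1780 in EOM control and 825 to 3522 in EOM EAMG, the highest on EOM EAMG 3, and at no more than 1689 on any DIA or EDL array.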
